A study of Drosera capensis with 12 samples.

Results

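Of the 397048 transcript features that the assembly of Cape sundew (Drosera capensis) leaf RNA holds, 58 met a rule for being lower in closed traps than in mock traps after glutathione and after living flies, and these 58 are described here. RNA had been sequenced in 4 groups of 3 libraries. Traps of the GSH-closed group had closed after glutathione (GSH), applied to the petiole at 100 mM. The GSH mock group had no small molecule applied. Traps of the fly-closed group had closed on living fruit flies fed to the leaf, and the fly mock group was not stimulated. The title of the fly-closed libraries names flies while another of their labels names GSH, and the title was followed. Each closed group is set against its own mock, and the comparisons share no library. The labels give no cultivar or age, nor when closed traps were collected, and whether each library is a plant of its own is not said, so p-values measure only the spread between libraries, which may be technical.

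Sundew leaves carry stalked glands that secrete a sticky mucilage and digestive enzymes, and caught prey makes the glands and then the leaf blade bend inward. In carnivorous plants this response is tied to jasmonate signalling, a hormone pathway that other plants use against wounding and herbivores, and it starts the secretion of proteases, chitinases and nucleases. Glutathione is the main soluble thiol of plant cells and takes part in redox balance and detoxification. The features have assembly identifiers only: the files pair none with a gene name, so no role can be given to any of the 58, and neither markers of the leaf or its glands nor a list of pathway genes could be applied. Members are therefore called by number, ordered by the smaller in size of the 2 changes, with the largest first.

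The members were chosen by their measured values. The value used is the deposited signal divided by its library's sum, times 1e+06, which is called TPM here, although the files do not show that it was corrected for feature length. A change is log2 of the mean closed TPM plus 1 over the mean mock TPM plus 1, minus the median of that quantity over the 30755 features above 0 in all 12 libraries. That median was -0.34 for GSH and -0.02 for flies, so that a typical feature was already lower in the GSH-closed libraries before centring. A member had a mean of 10 to under 300 TPM over the 6 mock libraries, both changes at -0.5 or lower, and in each comparison a highest closed value below the lowest mock value. The mock range held 12999 features. Of these, 2884 met the limit on the GSH change, 657 that on the fly change and 270 both, which is 9.36% of the features at the GSH limit and 41.1% of those at the fly limit. Of the 270, 123 had closed and mock libraries apart after GSH, 80 had them apart after flies, and 58 in both comparisons. Among the 45503 features abundant enough for a test, the closed libraries lay below the mock libraries without overlap for 31.8% in the GSH comparison and for 8.24% in the fly comparison, and among those in the mock range for 59.9% and 16.1%. All 58 passed the filter on low values (0.526 TPM in at least 3 libraries). Because both comparisons chose the members, the differences between closed and mock libraries are a description. Tests given further on, between the mocks and between the changes, use libraries that the rule used too, and support nothing about the list.

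Summed over all 58 members, the level in GSH-closed traps was 869, 798 and 812 TPM, against 2488, 2137 and 2370 TPM in the GSH mock. In fly-closed traps the sum was 1382, 1578 and 1663 TPM, against 2735, 2692 and 2511 TPM in the fly mock. The closed libraries thus held 35.4% of the GSH mock mean after GSH and 58.3% of the fly mock mean after flies, while all 12999 features of the mock range together held 95.6% and 98.7%. Taken singly, features of that range kept a median of 69.2% after GSH and 96.0% after flies, so a typical feature fell after GSH too. The members were a small part of the RNA: 0.0826% ± 0.00377 of all TPM in GSH-closed traps, against 0.233% ± 0.0178 in the GSH mock, and 0.154% ± 0.0144 in fly-closed traps, against 0.265% ± 0.0119 in the fly mock (SD, n = 3 each). In such bulk samples, fewer cells of a type and less RNA per cell cannot be told apart. No single member carried the sum, since the 3 most abundant made up 19.3% of the summed mock mean.

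**Figure D1:**
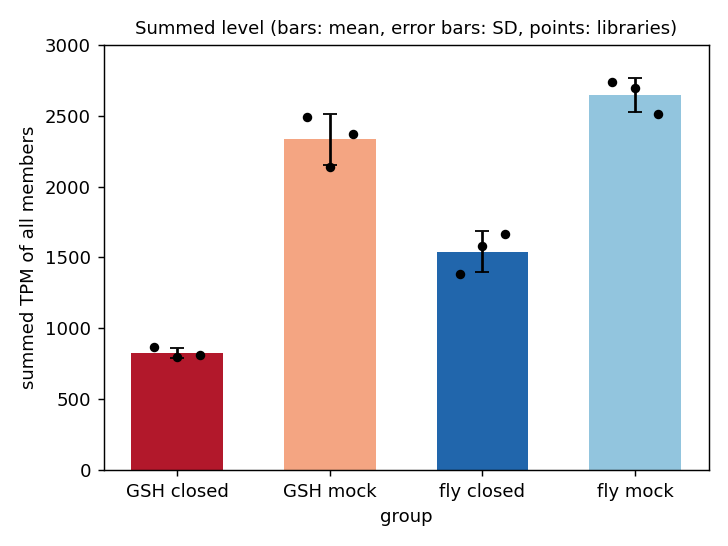
Summed TPM of the 58 members in each library (points), with the group mean (bars, from 0) and its SD (error bars), n = 3 libraries per group. The GSH-closed libraries lie between 798 and 869 TPM and the fly-closed libraries between 1382 and 1663 TPM, each group below its own mock because members were chosen that way.

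Most members were of moderate abundance in unstimulated traps. Their mean over the 6 mock libraries had a median of 24.8 TPM, next to 23.1 TPM for all features of the mock range. It was 10 to under 20 TPM for 23 members, 20 to under 50 for 20, 50 to under 100 for 8, and 100 to under 300 for 7. The members' median level left was close across these classes after GSH. The median level left after GSH was 35.4% of the mock mean in the lowest class, 35.0% in the next, 36.6% in the third and 40.6% in the highest. After flies the medians were 59.1%, 59.7%, 51.9% and 64.7%, in the same order.

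The GSH changes ranged from -4.15 to -0.54 with a median of -1.03, and the fly changes from -2.47 to -0.50 with a median of -0.67. The fly change of -2.47 is that of member 1, which was listed at 0 in all closed libraries, so the pseudocount sets it: with 0.1 in place of 1 it was -5.53, and the GSH change of that member was -6.91 in place of -3.78. For comparison, the medians over all features of the mock range were -0.16 and -0.03, and over all features tested 0.06 and 0.02. In plain TPM, without centring, members kept a median of 35.8% of their mock mean after GSH (range 0 to 52.0%) and 59.6% after flies (range 0 to 69.1%), where features of the mock range kept a median of 69.2% and 96.0%. A change of -1 or lower was reached by 31 members after GSH, by 15 after flies and by 10 after both. In 49 members the GSH change was the larger in size and in 9 the fly change was. In unscaled TPM, the lowest mock library was at least 2 times the highest closed library in 19 members after GSH and in 3 after flies. Both counts include member 1, whose closed libraries were all listed at 0. A typical feature was already lower in unscaled TPM after GSH. Neither these counts nor the 49 and 9 were made over all features, so nothing particular to the members is read from them.

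**Figure D2:**
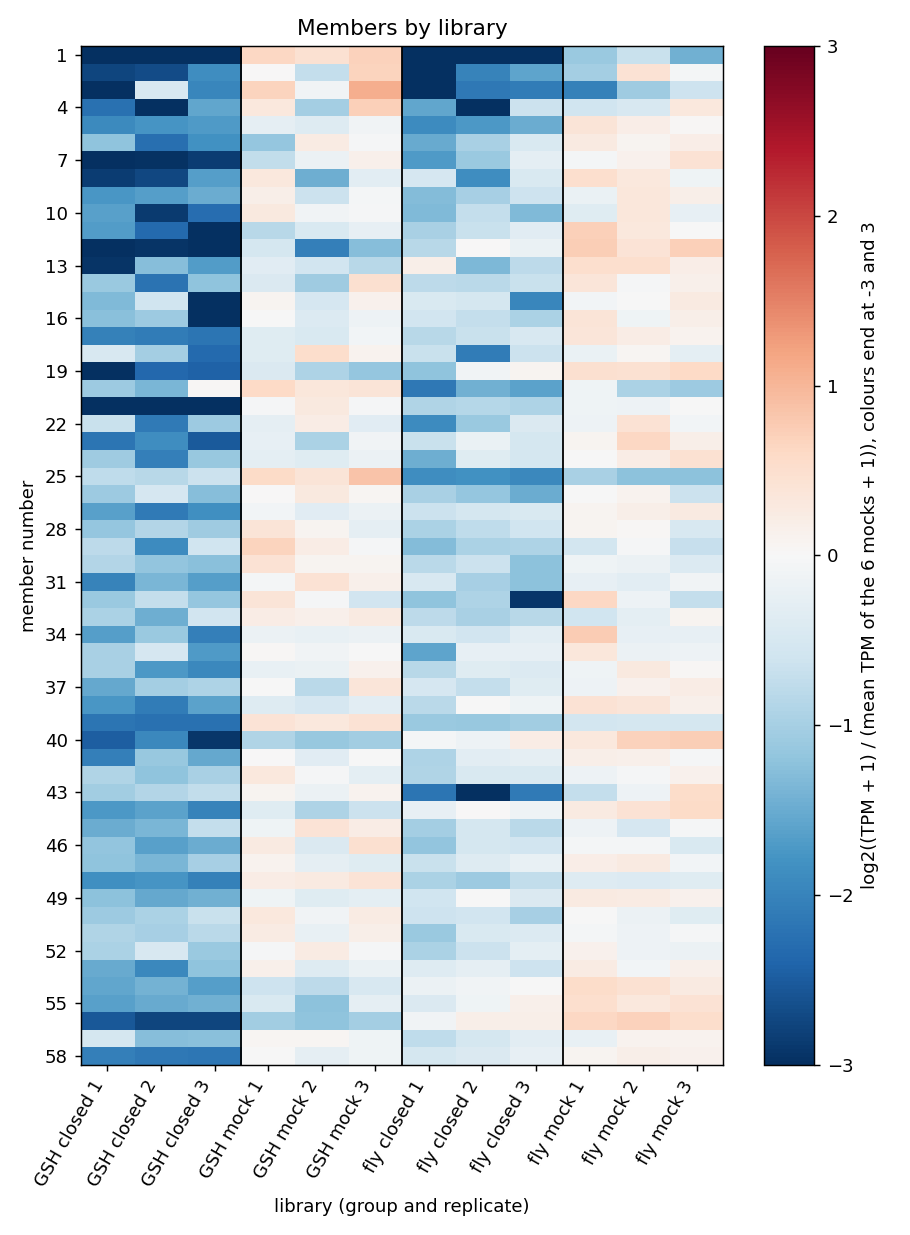
Heat map of the 58 members (rows, by member number) in the 12 libraries (columns, by group and replicate). Colour is log2 of TPM plus 1 over the member's mean of the 6 mock libraries plus 1, and ends at -3 and 3; most cells of the closed columns are blue, with the GSH-closed columns the darkest in most rows, and rows such as 25, 40 and 56 also differ in colour between the mocks.

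Members 1 to 10 show how closed and mock libraries were placed. Member 1, TRINITY_DN25032_c0_g1, was listed at 0 in all 3 GSH-closed libraries, against 16.6, 14.9 and 17.7 TPM in the GSH mock libraries. It was also listed at 0 in all 3 fly-closed libraries, against 4.35, 6.30 and 3.23 TPM in the fly mock libraries. It is the one member at 0 in every closed library, so no fold is given, and its mock level was low in both experiments and lower in the fly mock. Member 2, TRINITY_DN360021_c0_g1, had 5.59, 5.96 and 11.3 TPM in the GSH-closed libraries, against 43.9, 26.3 and 69.8 TPM in the GSH mock libraries. In traps closed on flies it had 4.69, 10.1 and 13.9 TPM, against 21.2, 59.4 and 42.2 TPM in the fly mock libraries. It kept 16.3% and 23.4% of its mock means, and all 6 closed libraries lay below all 6 mock libraries.

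Member 3 had 0.75, 15.6 and 4.93 TPM in the GSH-closed libraries, against 35.2, 20.4 and 47.5 TPM in the GSH mock libraries. The fly-closed libraries held 0.43, 4.17 and 4.33 TPM of it, against 4.64, 10 and 14.02 TPM in the fly mock libraries. The highest GSH-closed library exceeded all 3 fly mock libraries, so the closed and mock values overlap between the experiments though not within them. Member 4 had 4.07, 0 and 7.05 TPM in the GSH-closed libraries, against 28.6, 10.7 and 37.8 TPM in the GSH mock libraries. After flies its level was 7.04, 0.92 and 14.3 TPM, against 14.8, 16.01 and 28.7 TPM in the fly mock libraries. Single closed libraries were at or near 0 in each experiment, while the other closed libraries came closer to the lowest mock library.

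Member 5 had 1.98, 2.28 and 2.42 TPM in the GSH-closed libraries, against 8.27, 7.58 and 9.37 TPM in the GSH mock libraries. With living flies as the stimulus it stood at 2.03, 2.40 and 2.96 TPM, against 13.5, 11.9 and 10.3 TPM in the fly mock libraries. Its SDs were 0.225 to 1.60 TPM in the 4 groups, and every closed library lay far below every mock library. Member 6 had 3.83, 1.31 and 2.17 TPM in the GSH-closed libraries, against 3.95, 12.1 and 9.78 TPM in the GSH mock libraries. Its TPM in the fly-closed libraries were 2.91, 4.62 and 7.02, against 12.3, 10.7 and 11.7 in the fly mock libraries. In the GSH comparison its groups were nearly touching, as the highest closed and the lowest mock library differed by less than the spread within either group.

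Member 7 had 1.57, 2.59 and 2.87 TPM in the GSH-closed libraries, against 15.8, 23.8 and 30.1 TPM in the GSH mock libraries. In traps closed on flies it had 7.70, 12.03 and 21.8 TPM, against 25.8, 29.7 and 37.1 TPM in the fly mock libraries. Its level after GSH was 10.1% of the mock mean and after flies 44.9%, with a wide spread among the fly-closed libraries. Member 8 had 1.12, 1.28 and 3.81 TPM in the GSH-closed libraries, against 17.9, 4.53 and 11.2 TPM in the GSH mock libraries. The fly-closed libraries held 9.66, 3.16 and 10.1 TPM of it, against 20.6, 17.7 and 12.9 TPM in the fly mock libraries. The GSH mock libraries spread widely, and the lowest of them lay below some fly-closed libraries.

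Member 9 had 36.96, 39.3 and 44.6 TPM in the GSH-closed libraries, against 144, 80.7 and 122 TPM in the GSH mock libraries. After flies its level was 50.8, 63.5 and 82.5 TPM, against 111, 161 and 142 TPM in the fly mock libraries. It was the most abundant of the 10 and kept 34.97% and 47.5% of its mock means. Member 10 had 18.8, 7.35 and 11.5 TPM in the GSH-closed libraries, against 73.1, 55.4 and 58.5 TPM in the GSH mock libraries. With living flies as the stimulus it stood at 23.2, 36.2 and 23.5 TPM, against 45.9, 75.5 and 50.3 TPM in the fly mock libraries. Here, too, all closed libraries of both experiments lay below all mock libraries.

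**Figure D3:**
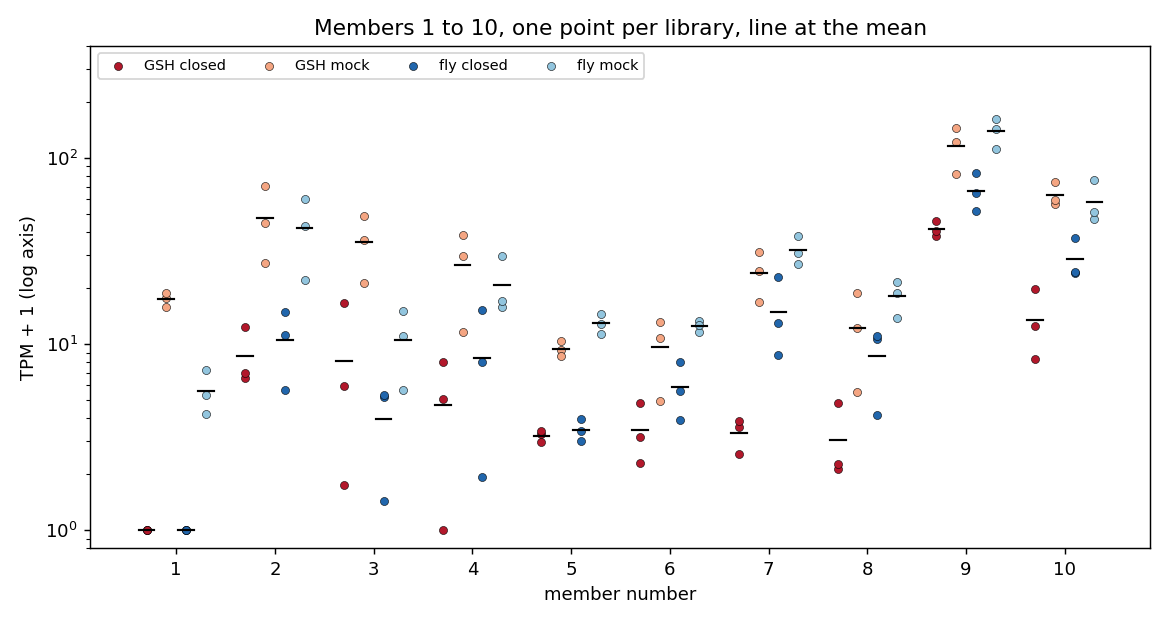
TPM plus 1 of members 1 to 10 in each library (points, log axis), with a line at the group mean, n = 3 libraries per group; GSH closed is left of GSH mock and fly closed left of fly mock. Members 1, 2, 5 and 10 have all closed points below all mock points, and the others have overlap between the experiments.

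The 3 most abundant members in the mocks came from further down the order. Member 30 had 102, 82.98 and 79.1 TPM in the GSH-closed libraries, against 254, 199 and 199 TPM in the GSH mock libraries. Its TPM in the fly-closed libraries were 107, 120.1 and 79.5, against 172, 167 and 141 in the fly mock libraries. All closed libraries of both experiments were below all mock libraries. Member 47 had 66.3, 59.5 and 77.2 TPM in the GSH-closed libraries, against 168, 128 and 121 TPM in the GSH mock libraries. In traps closed on flies it had 97.7, 119 and 134 TPM, against 178, 188 and 147 TPM in the fly mock libraries. Its fly-closed values reached those of the GSH mock, although it kept 48.6% and 68.3% of its own mock means. Member 34 had 43.1, 62.8 and 32.3 TPM in the GSH-closed libraries, against 121, 118 and 122 TPM in the GSH mock libraries. The fly-closed libraries held 99.4, 91.8 and 111 TPM of it, against 231, 115 and 115 TPM in the fly mock libraries. The mean of its fly mock rests on replicate 1, which stands far above the other fly mock libraries.

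The limit on the changes cut through a continuous range. A smaller change between -0.6 and -0.5 was seen in 26 of the 58 members, and 1640 further features of the mock range had groups without overlap in both comparisons and a change above the limit. Just inside it, member 58 had a fly change of -0.50, with 9.88, 9.14 and 8.89 TPM in the GSH-closed libraries, against 43.3, 35.95 and 39.9 TPM in the GSH mock libraries, and 30.2, 32.2 and 36.8 TPM in the fly-closed libraries, against 46.4, 49.7 and 47.7 TPM in the fly mock libraries. Member 57 had a fly change of -0.50 as well, with 24.3, 14.2 and 14.3 TPM in the GSH-closed libraries, against 37.1, 36.97 and 32.7 TPM in the GSH mock libraries, and 20.6, 24.4 and 28.5 TPM in the fly-closed libraries, against 30.5, 38.3 and 38.1 TPM in the fly mock libraries. Member 56 had one of -0.51, and its values are given further on. Just outside it, 3 features that are no members had the other conditions met. The nearest, with changes of -1.72 after GSH and -0.50 after flies, had 10.3, 6.24 and 9.28 TPM in the GSH-closed libraries, against 43.4, 35.5 and 38.6 TPM in the GSH mock libraries, and 27.1, 34.3 and 36.9 TPM in the fly-closed libraries, against 48.7, 41.4 and 52.1 TPM in the fly mock libraries. The next, with changes of -0.73 and -0.50, had 16.96, 16.98 and 18 TPM in the GSH-closed libraries, against 44.5, 25.1 and 43 TPM in the GSH mock libraries, and 25.7, 16.1 and 24.3 TPM in the fly-closed libraries, against 28.5, 40.99 and 26.6 TPM in the fly mock libraries. The third, with changes of -0.49 and -0.52, had 27.4, 40.4 and 37.9 TPM in the GSH-closed libraries, against 67.3, 46.8 and 75.8 TPM in the GSH mock libraries, and 33.9, 35.7 and 35.96 TPM in the fly-closed libraries, against 51.4, 50.1 and 53.4 TPM in the fly mock libraries. Fly changes that round to -0.50 thus stood on both sides of the limit.

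The spread within groups was wide for many members. The coefficient of variation (SD over mean of the 3 libraries) had a median over members of 27.9% in GSH-closed traps, against 17.3% in the GSH mock, and of 20.3% in fly-closed traps, against 13.6% in the fly mock. Over all features of the mock range the medians were 8.32%, 11.8%, 9.10% and 7.71% in the same order of groups. It exceeded 50% in 11 members in GSH-closed traps, in 4 in the GSH mock, in 7 in fly-closed traps and in 0 in the fly mock. Closed levels were lower than mock levels by the choice of members, and the part of level in the spread was not tested. Within some libraries the members shifted together to some degree. In fly-closed replicate 1, 16 of 58 members were above their own group mean, with a median deviation of -0.19 on the log2(TPM + 1) scale. In fly-closed replicate 3, 41 were above it, with a median of 0.15. Features of the mock range had medians of -0.08 and 0.06 in those libraries. In GSH mock replicate 2, 14 members were above the mean, with a median of -0.12, next to -0.10 for the range.

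Fewer members than 58 were separable by a test that weighs this spread. In limma, fitted to log2(TPM + 1) of all 45503 tested features with Benjamini-Hochberg adjustment, 38 members passed as lower after GSH (11.1% of all tested features did, and 24.2% of those in the mock range) and 14 after flies (0.796% and 1.66%). In both comparisons 13 passed, namely members 1, 2, 5, 9, 17, 21, 25, 27, 39, 48, 54, 56 and 58, and 19 passed in neither. The shares of all tested features for both and for neither were not counted. The share for both cannot exceed the 0.796% after flies. These contrasts chose the members, so the counts describe how wide the spread is and support nothing about the list. Which features meet the rule also depended on single libraries. Leaving out 1 library at a time gave 60 to 101 features, the most without fly-closed replicate 3, and 21 of the 58 were kept whichever library was left out. With fewer libraries the condition on overlap is easier to meet, which by itself raises the number. A member could be lost only through the limit on the changes or the mock range. The largest loss, 17 members, came without fly-closed replicate 1, the fly-closed library with the lowest sum. With trimmed-mean scaling of the libraries 42 features met the rule, of which 40 were among the 58.

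How far each stimulus took the members was also compared. The difference of the changes, GSH minus fly, was tested with limma over the whole table. The rule does not use their difference, but it uses the same libraries and admits only changes at or below its limit, so the calls are no test that is free of the choice. The test called 9 members. In 7 the GSH change was lower than the fly change (5.89% of all tested features were called this way), which is 12.1% of the members, next to 10.7% of the features in the mock range. In 2 the GSH change was higher (9.22% of all tested features), which is 3.45% of the members, next to 14.6% in the range. A feature with a GSH change above the limit could not be a member, so nothing is read from these shares. For the remaining 49 a difference did not pass, which does not show that the changes were equal. Over all 58 the difference had a median of -0.24 on the scaled log2(TPM + 1) scale, next to -0.02 over all tested features. With no scaling between libraries, where the median over all tested features moved to -0.29, the calls were 12 lower (20.7% of the members, next to 17.4% of all tested features) and 1 higher (1.72%, next to 6.11%).

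Member 21 had the largest difference. It had 4.82, 2.98 and 3.73 TPM in the GSH-closed libraries, against 98.9, 125 and 99.2 TPM in the GSH mock libraries. After flies its level was 53.9, 55.1 and 53.2 TPM, against 92.7, 90.6 and 101 TPM in the fly mock libraries. It kept 3.57% of its mock mean after GSH and 57.1% after flies, with mock libraries that overlapped, and GSH minus fly was -3.33 ± 0.234 (SE; limma adjusted p = 6.47e-06). Member 39 had 16.5, 16.1 and 16.1 TPM in the GSH-closed libraries, against 106, 98.2 and 107 TPM in the GSH mock libraries. With living flies as the stimulus it stood at 36.1, 35.4 and 37.7 TPM, against 54.1, 55.1 and 54.8 TPM in the fly mock libraries. It kept 15.7% and 66.5%, and GSH minus fly was -1.62 ± 0.0764 (SE; limma adjusted p = 4.81e-07). Replicates of this member agreed closely within each group, and the fly-closed libraries stood apart from both the GSH-closed and the mock libraries. Member 1 was the third in this direction, with -1.52 ± 0.272 (SE; limma adjusted p = 0.00337). Since it was listed at 0 in every closed library, that value is only the difference of its mock levels with the sign turned.

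In the other direction, member 43 had 7.55, 8.53 and 9.52 TPM in the GSH-closed libraries, against 17.5, 14.4 and 17.9 TPM in the GSH mock libraries. Its TPM in the fly-closed libraries were 2.81, 1.08 and 3, against 9.67, 14.7 and 24.7 in the fly mock libraries. It kept 51.4% after GSH and 14.04% after flies, and GSH minus fly was 1.86 ± 0.457 (SE; limma adjusted p = 0.0202, and 0.102 with no filter on low values). Member 5, whose values stand above, had a difference of 0.68 ± 0.17 (SE; limma adjusted p = 0.0209). That call was lost without GSH mock replicate 1, fly-closed replicate 1 or 2 or fly mock replicate 1 or 2, with adjusted p from 0.0517 to 0.0625 in limma, and with no scaling (limma adjusted p = 0.268). Member 32 had 40.9, 54.3 and 39.4 TPM in the GSH-closed libraries, against 117, 86.9 and 60.04 TPM in the GSH mock libraries. In traps closed on flies it had 37.9, 46.3 and 10.98 TPM, against 138, 79.9 and 53.8 TPM in the fly mock libraries. The difference was 1.10 ± 0.732 (SE) and did not pass (limma adjusted p = 0.418). Without fly-closed replicate 3, the lowest of its fly-closed libraries, it was 0.46.

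**Figure D4:**
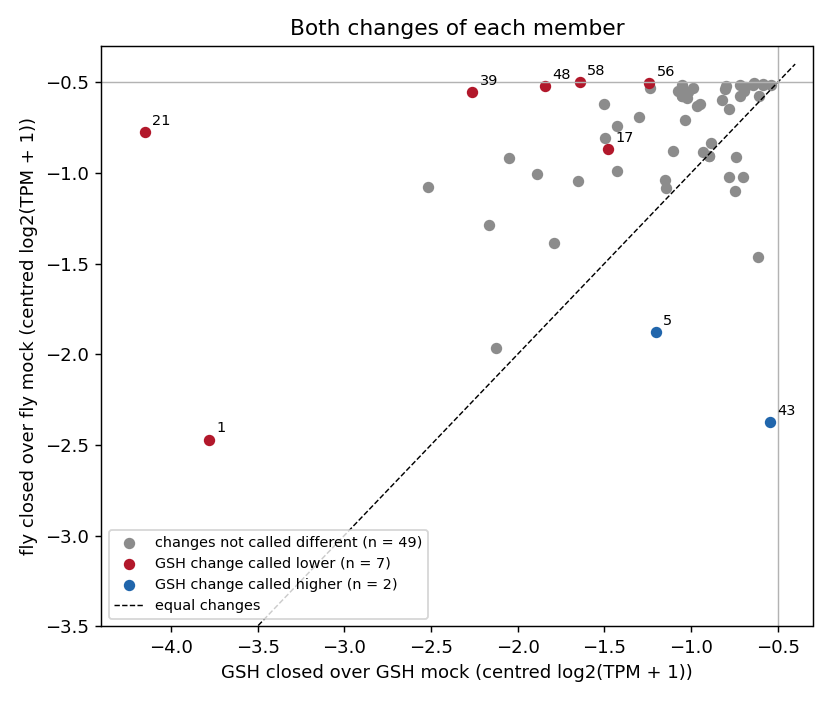
Change after GSH (horizontal) and after flies (vertical) of each of the 58 members, on the centred log2(TPM + 1) scale of the rule. Grey lines mark the limit of -0.5, the dashed line equal changes, and colour the limma test of the difference, which called 7 members with the GSH change lower and 2 with it higher (numbers are member numbers); most points lie above and to the left of the dashed line, where the GSH change is the larger in size.

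The mock levels of the members in the experiments are set side by side here. The rule used these libraries, for the mock range and for both changes, so the counts and calls describe the chosen features and support nothing about the list. The GSH mock libraries all lay below the fly mock libraries for 17 members, which is 29.3% of them (7.46% of all tested features and 10% of those in the mock range). They all lay above for 10 members, which is 17.2% (17.8% of all tested features and 38.1% in the range). In the remaining members the mock libraries of the experiments overlapped. The sum over members was 2331 ± 178 TPM in the GSH mock and 2646 ± 119 TPM in the fly mock (SD, n = 3 each), a difference of -314 TPM, and of -519 TPM with trimmed-mean scaling of the libraries. All features of the mock range went the other way, with 531977 ± 25265 TPM in the GSH mock and 456327 ± 6799 TPM in the fly mock (SD, n = 3 each). By limma 13 members were called lower in the GSH mock (3.78% of all tested features, 8.82% in the range) and 4 higher (5.65% of all tested features, 15% in the range). The background moved with the setting. With no scaling between libraries 8 members were called lower (2.54% of all tested features) and 4 higher (9.02%), and with no filter on low values 6 lower (0.38% of 227782 features) and 3 higher (0.637%). What differed between the experiments besides the stimulus is not in the labels, and the mock groups and the experiments cannot be told apart.

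The lowest adjusted p between the mocks was that of member 56. It had 10.2, 8.65 and 8.61 TPM in the GSH-closed libraries, against 30.3, 26.9 and 30.9 TPM in the GSH mock libraries. The fly-closed libraries held 59.3, 72.4 and 72.5 TPM of it, against 98.8, 103 and 93.1 TPM in the fly mock libraries. GSH mock minus fly mock was -1.85 ± 0.0823 (SE; limma adjusted p = 6.54e-07). All 3 fly-closed libraries lay above all 3 GSH mock libraries, so its level after flies was above that of the GSH mock. Member 54 had 34.9, 39 and 32.6 TPM in the GSH-closed libraries, against 68.4, 60.9 and 75.3 TPM in the GSH mock libraries. After flies its level was 92.7, 98.3 and 104 TPM, against 156, 145 and 127 TPM in the fly mock libraries. It showed the same order, with a mock difference of -1.19 ± 0.0803 (SE; limma adjusted p = 1.15e-05). Member 25 had 6.97, 6.50 and 7.54 TPM in the GSH-closed libraries, against 19.2, 16.7 and 23.4 TPM in the GSH mock libraries. With living flies as the stimulus it stood at 2.72, 2.83 and 2.52 TPM, against 5.84, 4.74 and 4.74 TPM in the fly mock libraries. Here the order was turned round: all GSH-closed libraries were above all fly mock libraries, and the mock difference was 1.62 ± 0.108 (SE; limma adjusted p = 1.06e-05). For member 39, given above, it was 0.77 ± 0.0541 (SE; limma adjusted p = 1.47e-05). The floor of 10 TPM is on the mean over all 6 mock libraries. Member 25 reached it only through the GSH mock (mean 19.8 TPM, fly mock 5.11). Member 1 did so too (16.4 and 4.63 TPM), and member 5 only through the fly mock (11.9 TPM, GSH mock 8.41). The mock differences of such members are partly set by that floor.

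**Figure D5:**
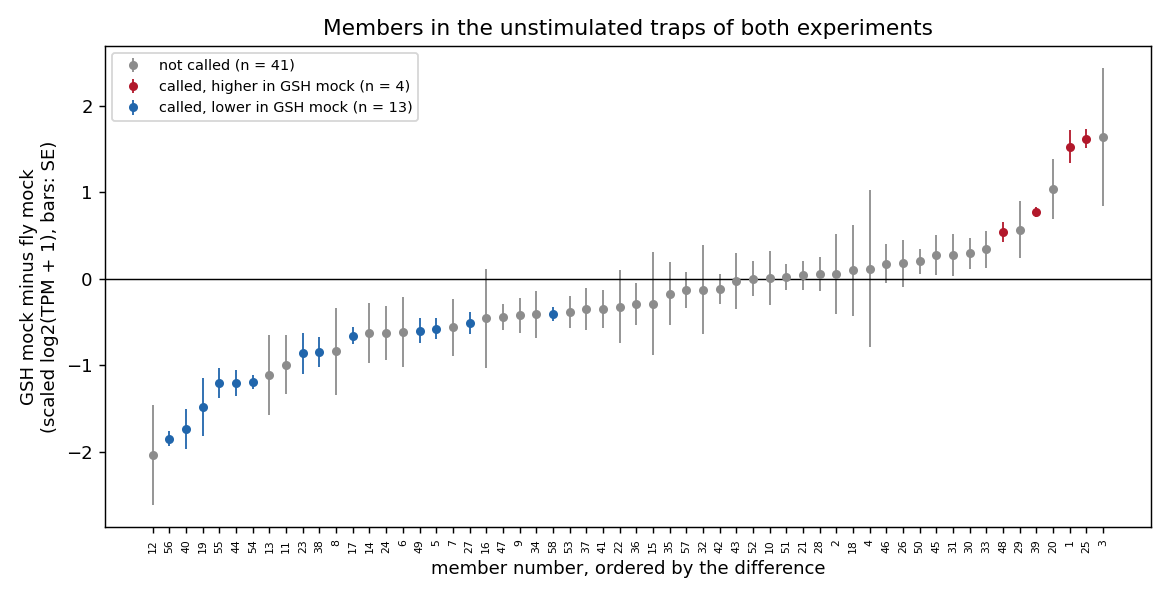
GSH mock minus fly mock for each of the 58 members (points, ordered by the difference) on the scaled log2(TPM + 1) scale, with the SE of the limma fit as bars. Blue points mark the 13 members called lower and red points the 4 called higher in the GSH mock; differences run from -2.04 (member 12, not called) to 1.64 (member 3, not called).

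The order of the 4 group means sorted the members into a few patterns. The rule fixes only that each closed mean lies below its own mock mean. In 24 members the order from low to high was GSH closed, fly closed, GSH mock, fly mock, and in another 17 the same with the mocks exchanged. In 9 members, numbers 12, 13, 19, 38, 40, 44, 54, 55 and 56, the GSH mock mean lay below the fly-closed mean. In 5 members the fly-closed mean was the lowest, followed by GSH closed, fly mock and GSH mock. The other 3 were member 1, with both closed groups at 0, member 32, with the fly-closed mean lowest and the fly mock mean highest, and member 25. All 6 closed libraries lay below all 6 mock libraries in 26 members (2.4% of all tested features and 6.2% of those in the mock range), a share that the rule itself raises. The GSH-closed libraries were all below the fly-closed libraries in 29 members, which is 50% (29.2% of all tested features and 43.9% in the range), and all above them in 3 members (14.4% and 20.6%). Against the mock of the other experiment, the fly-closed libraries were all above the GSH mock in 4 members (11.3% of all tested features and 9.24% in the range), and the GSH-closed libraries all above the fly mock in 1, member 25 (16.3% and 21.2%). These counts of TPM are not scaled, and the closed groups belong to different experiments.

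Each of the 58 members came from an assembly component of its own. Sister features, which the assembler put in the same component under another gene number, were tested for 8 members. These 10 sisters, none of them a member, may share reads with the member. The sister of member 16 had 0, 0 and 23.9 TPM in the GSH-closed libraries and 0 in every GSH mock library. In the fly-closed libraries it was at 0 throughout, against 7.72, 5.23 and 5.37 TPM in the fly mock libraries. Member 16 itself had 3.96, 4.52 and 0 TPM in the GSH-closed libraries, so its 0 fell where the sister had signal. Whether reads were shared there was not tested. None of the 10 had both changes at -0.5 or lower. In the mock range only 270 of 12999 features had both, and several sisters stood at a few TPM or less, so this says little. Their median change was -0.03 after GSH and -0.15 after flies, next to 0.06 and 0.02 over all tested features. These medians moved with the choice of sisters: with no filter on low values they were 0.07 and -0.083, and over features of the same assembly cluster -0.09 and -0.039. Beside the values with no filter, the medians over all features above 0 were 0.34 and 0.02. These are only the centring medians of -0.34 and -0.02 with the sign turned. They do not show that a typical feature rose, and give no background for the sisters. The closed libraries lay below the mock libraries without overlap for 4 of the 10 sisters after GSH and for 2 after flies. Of all tested features, 31.8% and 8.24% did so. The sisters of members 20 and 50, singled out after their values had been seen, were abundant enough to show this. The more abundant sister of member 20 had 35.2, 32.6 and 38.4 TPM in the GSH-closed libraries, against 62.5, 60.9 and 65.5 TPM in the GSH mock libraries, and 38.2, 40.5 and 41.1 TPM in the fly-closed libraries, against 44.8, 47.3 and 46.3 TPM in the fly mock libraries. The other sister of member 20 had 6.47, 13.8 and 5.32 TPM in the GSH-closed libraries, against 32.4, 33.4 and 34.1 TPM in the GSH mock libraries, and 11.3, 18.8 and 15.6 TPM in the fly-closed libraries, against 16.2, 18.95 and 15.8 TPM in the fly mock libraries. The sister of member 50 had 18.6, 21.8 and 21.6 TPM in the GSH-closed libraries, against 43.2, 39.7 and 40.5 TPM in the GSH mock libraries, and 25.9, 24.5 and 26.7 TPM in the fly-closed libraries, against 23.03, 26.8 and 27.1 TPM in the fly mock libraries. The last 2 had GSH-closed libraries below the GSH mock and fly-closed libraries that overlapped the fly mock. Member 20 itself had 8.91, 7.06 and 20.4 TPM in the GSH-closed libraries, against 30.6, 25.7 and 26.5 TPM in the GSH mock libraries. Its TPM in the fly-closed libraries were 3.72, 6.66 and 5.93, against 18.1, 9.82 and 8.82 in the fly mock libraries. Member 50 itself had 11.6, 12.8 and 15.8 TPM in the GSH-closed libraries, against 32.2, 23.9 and 30.6 TPM in the GSH mock libraries. In traps closed on flies it had 16.3, 16.9 and 12.5 TPM, against 25.4, 22.6 and 19.8 TPM in the fly mock libraries. Closed and mock libraries of both members were apart in each experiment, as the rule requires.

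Depth cannot be read from these files. The deposited values are rescaled, with library sums from 17708251 to 20453079, and the reads behind a single member are unknown, so a value of a few TPM may rest on few reads. More features were above 0 in the libraries of the fly experiment (74756 to 86499) than in those of the GSH experiment (59804 to 63088). All 58 members were above 0 in every mock library, and 4 members, numbers 1, 4, 12 and 16, were listed at 0 in at least 1 closed library.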

How the data were processed

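RNA of 12 Drosera capensis trap libraries was analysed from 1 deposited table. The submitters' processing notes name DESeq2 (version 1.16.1), RSEM, Trimmomatic and cutadapt, with roles and settings not given in the sources used here. The values the authors deposited behave as a rescaled signal rather than as counts, so no count model was used, and how they were rescaled is not stated. They were divided by library sums and given per 1e+06 (TPM). Reads behind a value are unknown, so no counting interval is given.

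The members, their numbering and the tests were chosen with earlier results of these data known. Tests used limma 3.58.1 in R 4.3.3 on log2(TPM + 1), after trimmed-mean scaling of the libraries (30% of log ratios and 5% of levels trimmed), a minimum of 0.526 TPM in at least 3 libraries, the 4 groups in 1 fit (8 residual degrees of freedom), trended and robust variances, and Benjamini-Hochberg adjusted p below 0.05 over 45503 features. The fit was tested on simulated data. Values per library are given for members 1 to 10, the 3 most abundant in the mocks, the 3 largest GSH minus fly differences each way, the 4 lowest adjusted p between mocks, and 3 features on each side of the limit. Other members named were singled out after their values were seen. Identifiers are printed for members 1 and 2 only. Alternatives were the pseudocount, centring, scaling, the filter, a replicate block and leaving out each library. No genome or gene names were used here.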

Additional observations from a re-analysis of the deposited data

Results flagged for a closer look

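For 9 members the limma test called a difference between the changes, GSH minus fly (Benjamini-Hochberg adjusted p below 0.05 over all 45503 tested features). The same test called 15.1% of all tested features, so the number of calls sets the 58 members apart in nothing. GSH minus fly, on the scaled log2(TPM + 1) scale, was -3.33 for member 21, -1.62 for member 39, -1.52 for member 1, -1.27 for member 48, -1.06 for member 58, -0.66 for member 56 and -0.55 for member 17. It was 1.86 for member 43 and 0.68 for member 5. The value of member 1 shows no difference in response, since the member was listed at 0 in every closed library and -1.52 is its mock difference with the sign turned. Members 17, 48 and 58 are not among the largest differences but had steady replicates. Member 48 had 3.59, 3.85 and 3.03 TPM in the GSH-closed libraries, against 18.3, 18.9 and 20.97 TPM in the GSH mock libraries. The fly-closed libraries held 7.56, 6.81 and 8.87 TPM of it, against 11.7, 11.5 and 11.98 TPM in the fly mock libraries. Member 17 had 4.57, 4.31 and 3.95 TPM in the GSH-closed libraries, against 16.7, 15.7 and 20.6 TPM in the GSH mock libraries. After flies its level was 11.8, 13.2 and 15.2 TPM, against 28.3, 25.4 and 23.6 TPM in the fly mock libraries. The values stand beside mock levels that themselves differ: of the 7 members called with a lower GSH change, 3 were called higher and 3 lower between the mocks, and both tests use the same mock libraries. The part of the mock levels in these differences was not tested. How many of all tested features were called in both tests was not counted, so nothing particular to the members is read from the overlap.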

How the results depend on the processing

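The rule gave 58 members, and 270 features when overlap between closed and mock libraries was allowed. It gave 58 with a pseudocount of 0.1 (55 shared with the members), 75 with no centring and 62 with centring on the tested features (58 shared each time), and 42 with trimmed-mean scaling (40 shared). Without single libraries, where the condition on overlap is easier to meet, it gave 60 to 101, the most without fly-closed replicate 3 (52 shared). The 17 members called between the mocks were 9 with no filter on low values, which put 227782 features into the test, and 12 to 19 without single libraries. The 9 members called for the difference of changes were 13 with no scaling, 6 with no filter and 8 to 10 without single libraries. With no filter, members 43 (1.82, limma adjusted p = 0.102) and 5 (0.65, limma adjusted p = 0.229) were not called. Counts over all features moved by more than 1.5 times between the mocks (4294, and 2318 with no filter or 2455 with the mock groups only), for the difference of changes (6876, and 10685 with no scaling or 3452 with no filter), after GSH (11724, and 7695 with no filter) and after flies (2531, and 1343 with no filter, 1514 with only features above 0 in all 12 libraries, or 1377 to 1461 without a fly-closed library). With no scaling, 28.4% of the calls after GSH were higher, against 56.9% with it, and the median over all features moved to -0.27. The share was 26.0% against 61.0% for the difference of changes and 78.0% against 59.9% between the mocks. The summed mock difference was -519 TPM with trimmed-mean scaling, -306 TPM without the 3 most abundant members, and -392 to -217 TPM without single libraries. The sisters' median GSH change of -0.03 was -0.09 over features of the same assembly cluster and 0.07 with no filter, and their median fly change of -0.15 was -0.039 over features of the same assembly cluster and -0.083 with no filter. With no filter, the medians over all features above 0 were 0.34 and 0.02, which are only the centring medians with the sign turned. For members 1 to 10, none of these alternatives changed the sign of a change. The rule all but fixes that sign, because every closed library of a member lies below its mock libraries. It is therefore no measure of steadiness, and sizes did shift, as given above for member 1.

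Same-numbered libraries did not deviate together over all tested features (correlations from -0.0075 to 0.0154). This does not show that they were unpaired, and the labels do not say whether the numbers pair them. With a replicate block, 15 members were called between the mocks (8.19% of all tested features), 9 for the difference of changes (13.6%), 40 as lower after GSH (10.2%) and 17 as lower after flies (0.596%). All values rest on 3 libraries per group and an unknown read depth, and the cause of these shifts was not tested.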
